A study of Homo sapiens with 4 samples.

Results

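The genes described here are the 2 STAT5 genes, STAT5A and STAT5B, and 8 genes that STAT5 is known to switch on or that feed back on it: CISH, SOCS1, SOCS2, SOCS3, PIM1, PIM2, IL2RA and OSM. They were matched by symbol to the gene tables, and each symbol gave 1 gene ID, so they are 10 of the 61498 gene IDs. The members were chosen by name with earlier results of the same comparison known, so their differences between the conditions are a description. Where a member is said to be called, it passed the threshold in the fit over all genes, and this is no independent evidence. K562, a human erythroleukaemia cell line that carries the BCR-ABL1 fusion kinase, was grown either untreated or with 50 µM hemin for 108 h, an iron porphyrin that drives the line toward the erythroid state. Poly(A) RNA was sequenced in 2 libraries of each condition. The labels number the libraries as replicates without saying whether they came from separate cultures, so the spread between them may be technical.

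STAT5A and STAT5B are transcription factors that stay in the cytoplasm until a JAK kinase below a cytokine receptor, or a fusion kinase such as BCR-ABL1, phosphorylates them. They then pair, enter the nucleus and bind a palindromic DNA element. Among the genes they switch on are brakes, the CISH and SOCS proteins, which act on the receptor and its kinases and so end the signal. In erythroid precursors the same pathway carries the survival signal of erythropoietin.

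Expected counts, the reads that RSEM assigned to each gene, summed to between 7455447 and 8241534 per library, and 14458 genes had enough counts to be tested. Erythroid marker genes were read in all libraries, with 10 of 10 detected and a summed level of 5512 to 5738 TPM (a level that allows for transcript length) in untreated and 6604 to 7061 TPM in hemin-treated cells. TFRC and EPOR stand both in that marker list and in the pathway lists below, and FOXP3 both in the lymphocyte list and in the pathway lists. T and B lymphocyte markers were near absent, with 6 of 10 detected, CD3E, CD2, CD8A and MS4A1 at 0 in every library, and no marker above 14 counts in any library. Of the monocyte and neutrophil markers 5 of 7 were detected, with S100A9 and MPO at 0, and of the megakaryocyte markers 2 of 5, with GP9, PF4 and PPBP at 0.

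By the fitted fold changes, IL2RA and CISH moved farthest among the 10 genes, both downward, while PIM2 alone was called higher. In edgeR's quasi-likelihood test 6 of the 9 members with enough counts were called lower after hemin (STAT5B, CISH, SOCS1, SOCS2, PIM1 and IL2RA), against 7.14% of all genes tested. PIM2 was 1 of 9 called higher, against 7.00% of all genes tested, and STAT5A and SOCS3 were not called. Since this comparison was in view when the members were listed, nothing is read from these shares. Counts scaled to library depth (CPM) in the 2 conditions did not overlap for any of the 9 members, which also held for 57.4% of all genes tested. The median log2 fold change was -0.40 over the 9 members and -0.0048 over all genes. Scaling by library size alone moved the share of lower genes among all calls from 50.5% to 65.1%. The direction of none of the 9 members changed under it or under the other alternatives, though DESeq2 gave no adjusted p for IL2RA. In bulk RNA, fewer cells that express a gene and less of its RNA per cell cannot be told apart.

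**Figure D1:**
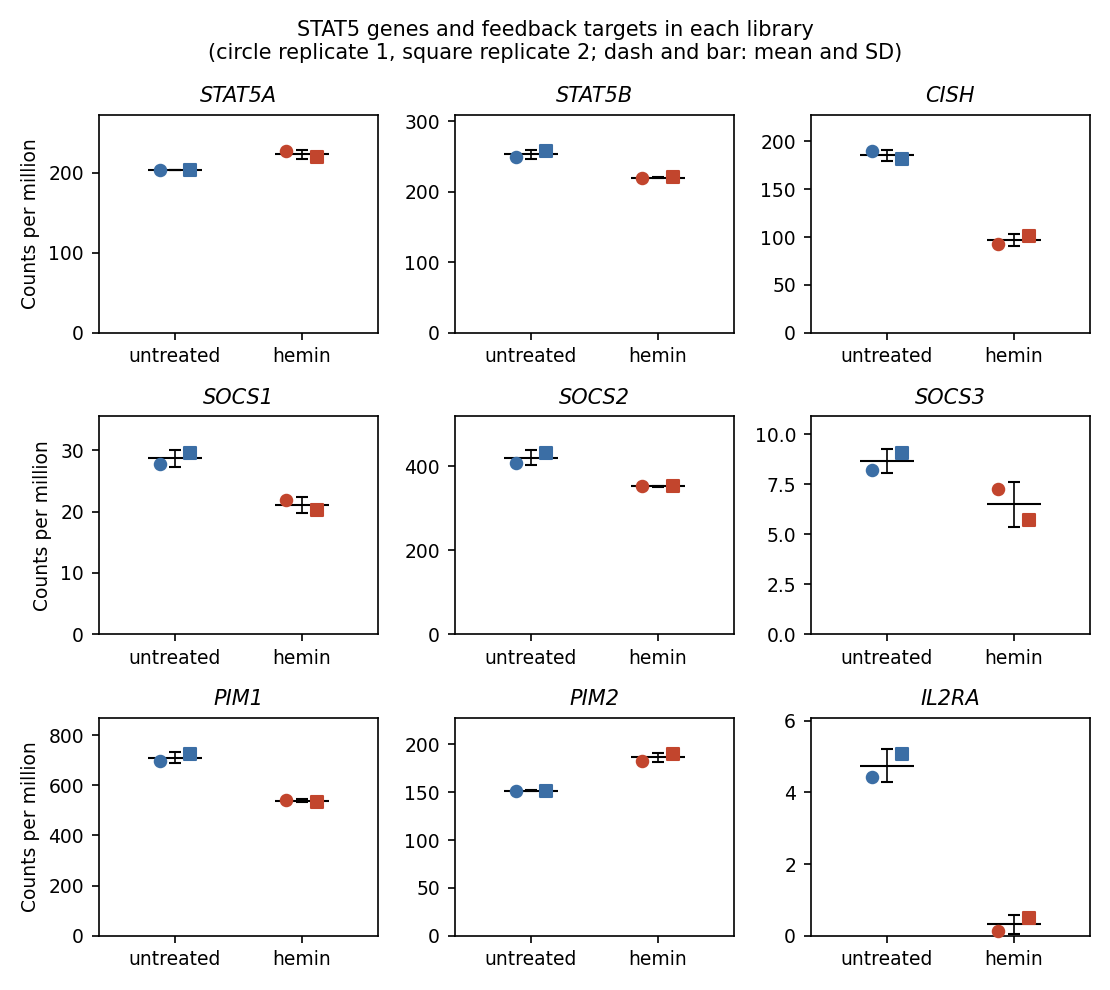
Depth-scaled counts, CPM (linear axes from 0, TMM-scaled) of the 9 tested members in the 2 untreated (blue) and the 2 hemin-treated (red) libraries, with mean and SD. CISH went from 190 and 182 CPM to 92.4 and 101 CPM, and IL2RA from 4.43 and 5.07 CPM to 0.135 and 0.496 CPM, while the changes of both STAT5 genes were small.

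STAT5A and STAT5B moved in opposite directions by small amounts. STAT5A (ENSG00000126561, GRCh38 chr17:42287547-42311943, plus strand) had 1609 and 1522 counts in the untreated libraries and 1684 and 1771 counts after hemin. Scaled for depth this was 203 ± 0.18 CPM (SD, n = 2) against 223 ± 5.4 CPM, a log2 fold change of 0.13 ± 0.043 (SE), so both hemin-treated libraries lay above both untreated ones. STAT5B (ENSG00000173757, chr17:42199176-42288633, minus strand) went from 1967 and 1928 counts to 1630 and 1777. Its level fell from 253 ± 6.2 CPM to 220 ± 0.40 CPM (n = 2 each), a log2 fold change of -0.20 ± 0.042. Without untreated replicate 2 the fold change of STAT5B was -0.17 and it was no longer called. The counts of STAT5A were 0.818 and 0.790 times those of STAT5B in untreated cells and 1.03 and 0.996 times after hemin, so the genes came to near equal counts. Their sum changed less, from 452 and 461 CPM to 447 and 440 CPM. The genes start head to head with overlapping first parts and encode similar proteins, so some reads could be assigned to either. The posterior SD that RSEM gives for this division was 10.1 to 11.5 counts, under 1% of either gene's count in every library.

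CISH, a brake that STAT5 induces directly, fell to 52.2% of its untreated level. It had 1501 and 1359 counts in untreated cells and 685 and 816 counts in hemin-treated cells, or 186 ± 5.9 CPM against 96.7 ± 6.2 CPM (SD, n = 2 each), a log2 fold change of -0.94 ± 0.057. The higher hemin-treated library thus stayed far below the lower untreated one. CISH (ENSG00000114737) lies on the minus strand at chr3:50606489-50611774, and its start overlaps MAPKAPK3, a kinase gene on the plus strand. MAPKAPK3 itself had 490 and 493 counts in untreated cells and 455 and 480 counts after hemin (edgeR adjusted p = 0.473).

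The promoter of CISH carries the DNA element of the STAT family in repeats, and its letters are shown because CISH was the one member whose window held it. The element was searched as TTCNNNGAA, which reads the same on both strands, in windows from 250 bases before to 50 after each transcript start in RefSeq (GRCh38.p14). Of the 10 members 8 had a window, and SOCS2 and OSM had none. The 4 matches in CISH lie in 2 close pairs, printed 5′ to 3′ on the minus strand with the matches in capitals, at chr3:50611996-50612015 (bases -241 to -222, with base 0 the first base of the transcript) and at chr3:50611878-50611903 (bases -129 to -104).
CISH distal pair: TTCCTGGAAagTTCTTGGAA
CISH proximal pair: TTCTAGGAAgacgctgcTTCCGGGAA
Of all 35116 windows 7.66% held at least 1 match and 0.456% held at least 2. The windows with 4 matches numbered 7, from 6 gene symbols, and among them were CISH and BCL6. A match is a run of letters and not a measured binding site, and a window without one says nothing of elements elsewhere.

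The SOCS genes encode adaptor proteins that block JAK kinases or mark receptors for destruction, and their levels differed widely. SOCS2 (ENSG00000120833, chr12:93569814-93583487, plus strand) was the most abundant, with 3235 and 3243 counts in untreated and 2613 and 2855 in hemin-treated cells. It fell from 421 ± 17 CPM to 353 ± 1.1 CPM (n = 2 each), a log2 fold change of -0.25 ± 0.043. Its antisense gene SOCS2-AS1 had 154 and 125 counts in untreated and 99 and 106 counts in hemin-treated cells, a log2 fold change of -0.45 that did not pass the test (edgeR adjusted p = 0.0511). Since no strand setting is given for the counting, reads of overlapping genes on opposite strands cannot be told apart.

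SOCS1, a direct inhibitor of JAK kinases, had 219 and 222 counts in untreated libraries and 163 in each hemin-treated library. This was 28.7 ± 1.4 CPM against 21.1 ± 1.3 CPM (n = 2 each), a log2 fold change of -0.44 ± 0.099. It was not called without untreated replicate 2 (log2 fold change -0.39), without hemin replicate 2 (-0.38) or by DESeq2 (-0.44). SOCS1 (ENSG00000185338, chr16:11254417-11256204, minus strand) lies within RMI2, a gene on the plus strand that had 150 and 142 counts in untreated cells and 148 and 137 counts after hemin (edgeR adjusted p = 0.863). SOCS3, which acts mainly on receptors that use the gp130 chain, was rare. It had 65 and 68 counts in untreated and 54 and 46 counts in hemin-treated cells, with a log2 fold change of -0.42 ± 0.205 that was not called. Its fold change was close to that of SOCS1, but the error was wider at this depth. SOCS3 (ENSG00000184557) lies at chr17:78356778-78360077 on the minus strand.

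The PIM kinases, which promote survival and growth, moved in opposite directions. PIM1 (ENSG00000137193, chr6:37170152-37175428, plus strand) had 5511 and 5432 counts in untreated cells and 4025 and 4317 after hemin. Its level fell from 711 ± 20 CPM to 539 ± 5.4 CPM (n = 2 each), a log2 fold change of -0.40 ± 0.040, to 75.8% of the untreated level. PIM2 (ENSG00000102096, chrX:48913182-48919024, minus strand) had 1200 and 1131 counts in untreated and 1356 and 1533 counts in hemin-treated cells. It rose from 151 ± 0.50 CPM to 186 ± 5.1 CPM, a log2 fold change of 0.30 ± 0.045, to 123% of the untreated level. PIM3, the remaining kinase of the family, stood at 329 and 324 counts against 349 and 354 and was not called (log2 fold change 0.10 ± 0.077, edgeR adjusted p = 0.445). It is named for its family after its values had been seen.

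IL2RA, the alpha chain of the interleukin-2 receptor and a classical STAT5 target of lymphocytes, was read by few counts in untreated cells and hardly at all after hemin. The untreated libraries held 35 and 38 counts and the hemin-treated libraries 1 and 4. Pooled over the libraries, 73 counts stood against 5, a depth-scaled ratio of 14.7 with an exact 95% interval of 6.01 to 46.6 that covers counting error only. The fitted log2 fold change was -3.81 ± 0.496. It was -4.98 without hemin replicate 2 and -3.21 without hemin replicate 1, so its size rests on which of these libraries is kept. In TPM the libraries read 3.38 and 5.05 untreated and 0.07 and 1.3 after hemin, and these levels also depend on the transcript length that RSEM assigned to the gene, which ranged from 568 to 2791 bases between libraries. Beside this, the summed lymphocyte markers were 3.4 to 3.6 TPM in untreated and 1.93 to 2.32 TPM in hemin-treated cells. These sums rest on few counts and need not hold for each marker. FOXP3 had 4 and 1 counts in untreated and 2 and 7 in hemin-treated cells. The part of these markers in the result was not tested. Of the other chains of the receptor, IL2RG had 84 and 81 counts in untreated and 68 and 74 in hemin-treated cells (edgeR adjusted p = 0.394), and IL2RB had at most 5 counts in any library.

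IL2RA (ENSG00000134460) lies at chr10:6010689-6062370 on the minus strand. Its promoter is shown because it was the member with the largest fold change, and the 247 bases that end 4 bases before the transcript start (chr10:6062371-6062617, GRCh38.p14, minus strand) hold no match to the element, so no letters are in capitals.
IL2RA upstream: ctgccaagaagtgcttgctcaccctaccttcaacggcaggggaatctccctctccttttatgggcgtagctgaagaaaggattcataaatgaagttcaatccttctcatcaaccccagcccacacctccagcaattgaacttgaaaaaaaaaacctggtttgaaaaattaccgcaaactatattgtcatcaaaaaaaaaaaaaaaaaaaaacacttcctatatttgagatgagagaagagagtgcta
The genes whose profile over the 4 libraries lay nearest to that of IL2RA, out of 12622 with a mean of at least 20 untreated counts, were ENSG00000286239, ENSG00000272884 and CPZ, at distances of 1.01, 1.03 and 1.07 on the log2 CPM scale. A small count was added before taking logs, which draws counts near 0 together. The fitted log2 fold changes were -7.36, -7.63 and -2.88 for these genes, against -3.81 for IL2RA. ENSG00000286239 went from 27 and 14 counts to 0 in both hemin-treated libraries, and ENSG00000272884 from 19 and 30 counts to 0. For ENSG00000286239 and ENSG00000272884 a posterior SD of up to 53.2% and 37.2% of the count shows how uncertain the division of their reads was. CPZ, a secreted carboxypeptidase, went from 155 and 147 counts to 22 and 19, with a posterior SD of up to 7.54% of the count.

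OSM, oncostatin M, is a cytokine that STAT5 induces in blood cells. It was listed at 0 in all 4 libraries (ENSG00000099985, chr22:30262829-30266851, minus strand). With no count seen, a level of up to 3 counts remains possible, that is 0.372 to 0.405 CPM in these libraries, and a change below this was not detectable.

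**Figure D2:**
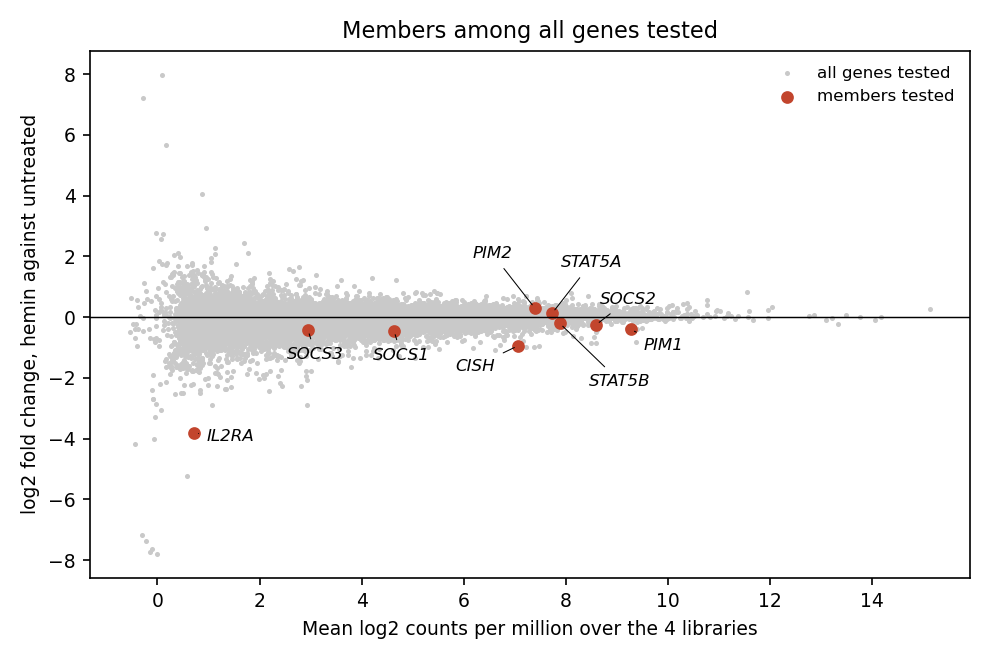
Fitted log2 fold change (hemin against untreated) against mean log2 CPM over the 4 libraries for the 14458 genes tested (grey), with the 9 tested members in red. IL2RA lies at -3.81 among genes of low counts, CISH at -0.94, and the other members between -0.44 and 0.30.

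Ranked by TPM over the 4 libraries, which allows for gene length, SOCS2 (mean 410 TPM) and PIM1 (382 TPM) stood above the rest, followed by PIM2 (120 TPM), STAT5B (98.8 TPM), STAT5A (95.7 TPM) and CISH (91.1 TPM). SOCS1 (27.6 TPM), SOCS3 (3.90 TPM) and IL2RA (2.45 TPM) came next and OSM was last. The order was not the same in both conditions. SOCS2 and PIM1 overlapped in untreated cells, at 438 and 453 TPM for SOCS2 and 442 and 452 TPM for PIM1. After hemin SOCS2 lay above PIM1, with 376 and 374 TPM against 324 and 312 TPM. PIM2 and STAT5B overlapped in untreated cells and separated after hemin, while STAT5B and STAT5A were separate in untreated cells and overlapped after hemin. CISH, at 124 and 117 TPM, lay above PIM2, STAT5B and STAT5A in untreated cells, and after hemin below all of these. Against STAT5A, which stood at 93.0 and 92.6 TPM untreated, it stood after hemin at 58.5 and 65.1 TPM against 102 and 95.1 TPM. SOCS3 and IL2RA overlapped in untreated cells only.

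The other genes of the pathway were followed in 6 lists with 98 genes, of which 62 had enough counts. These lists too were written with earlier results of these data known. Among the 62 genes, 8 fell (against 7.14% of all genes tested) and 4 rose (against 7.00%), by edgeR's test with Benjamini-Hochberg adjustment over all genes. The median log2 fold change over the 62 genes was -0.04. With library size as the only scaling 13 fell and 4 rose, beside 9.39% and 5.04% of all genes tested, and without untreated replicate 1 there were 3 that fell, beside 3.4% of all genes.

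**Figure D3:**
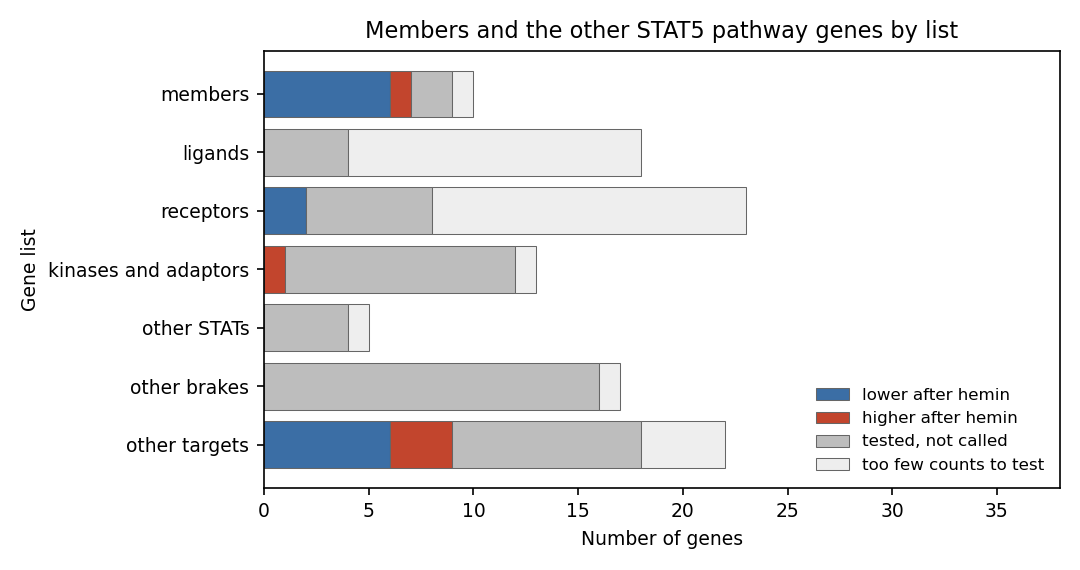
Number of genes (x axis) in the members and in each of the 6 pathway lists (y axis) that were lower, higher or not called after hemin, or had too few counts to test. Of the 18 tested other targets 6 were lower and 3 higher, and of the 16 tested brakes none was called. Of all genes tested 7.14% were lower and 7.00% higher.

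Most cytokines and many receptors of the pathway were too rare to test. Of 18 ligands 4 were tested and none was called, against 7.14% of all genes tested called lower and 7.00% higher. IL6, an activator of gp130 receptors, had the highest level in the list but only 13 and 16 counts against 17 and 20 after hemin (log2 fold change 0.34 ± 0.366, edgeR adjusted p = 0.597). Without adjustment none of these 4 had an edgeR p under the threshold of 0.05 either, against 29.4% of all genes tested. With so few genes nothing is read from this. Of 23 receptors 8 were tested and 2 fell (against 7.14% of all genes tested). IL15RA, the high-affinity chain of the interleukin-15 receptor and the highest of the list at a mean of 16.5 TPM, went from 161 and 127 counts to 88 and 62 (log2 fold change -0.94 ± 0.196, edgeR adjusted p = 0.0139), and without untreated replicate 1 it was not called. IL6R, which binds interleukin-6, went from 56 and 45 counts to 26 and 28 (log2 fold change -0.91 ± 0.242, edgeR adjusted p = 0.0362) and lost the call by DESeq2 and when any single library was left out. IL11RA, with a log2 fold change of -0.96 ± 0.281, did not pass (edgeR adjusted p = 0.0506). It was called lower with library size as the only scaling, without a count filter, with a filter of at least 20 counts and with posterior mean counts. EPOR, the erythropoietin receptor, was named for its role in this lineage. It had 57 and 60 counts in untreated and 60 and 72 counts in hemin-treated cells and was not called (log2 fold change 0.16 ± 0.184, edgeR adjusted p = 0.613).

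Among kinases and adaptors 12 of 13 were tested, and 1 rose (against 7.00% of all genes tested) while 0 fell (against 7.14%). LYN, a SRC-family kinase, went from 775 and 751 counts to 846 and 962 (log2 fold change 0.24 ± 0.053, edgeR adjusted p = 0.0185). It was not called by DESeq2, without untreated replicate 1, without untreated replicate 2 or without hemin replicate 2. TYK2, a JAK-family kinase and the highest of this list at a mean of 98.3 TPM, had a log2 fold change of -0.05 ± 0.046 (edgeR adjusted p = 0.562). JAK2, the kinase of the erythropoietin receptor, had 1303 and 1218 counts in untreated and 1105 and 1205 counts in hemin-treated cells. Its log2 fold change of -0.13 ± 0.045 did not pass (edgeR adjusted p = 0.0754), but it was called lower with library size as the only scaling. The parent genes of the fusion, BCR (0.01 ± 0.057, edgeR adjusted p = 0.906) and ABL1 (0.04 ± 0.043, edgeR adjusted p = 0.618), were not called. Gene counts do not separate fusion from normal transcripts. JAK2, BCR and ABL1 were named for their roles after their values had been seen.

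None of the 4 tested other STAT genes was called by edgeR, and 1 of them, STAT6, had an unadjusted p under 0.05. None of the 16 tested brakes outside the members was called either, against 7.14% of all genes tested called lower and 7.00% higher. Without adjustment 7 of these 16 had a p under 0.05, as had 29.4% of all genes tested. DESeq2 likewise called 0 of the ligands, other STATs and brakes, beside 3.49% of all genes tested lower and 4.07% higher. Some other alternatives called PTPRC, PIAS2 or CBLB among the brakes. The phosphatase PTPRC, or CD45, was the highest at a mean of 222 TPM and had 4243 and 3980 counts in untreated and 3623 and 3935 counts in hemin-treated cells. Its log2 fold change of -0.13 ± 0.038 did not pass (edgeR adjusted p = 0.0508), but it was called lower with library size as the only scaling, with a filter of at least 20 counts and with posterior mean counts.

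Of 22 further targets 18 were tested, 6 fell (against 7.14% of all genes tested) and 3 rose (against 7.00%). TNFRSF9, a lymphocyte costimulatory receptor, fell most, from 82 and 65 counts to 21 and 17 (log2 fold change -1.95 ± 0.252, edgeR adjusted p = 0.00159). ID1, an inhibitor of differentiation factors that also belongs to the ID gene family, went from 79 and 61 counts to 29 in each hemin-treated library (log2 fold change -1.27 ± 0.226, edgeR adjusted p = 0.00703). BCL6, a repressor that competes with STAT5 for DNA sites, went from 138 and 99 counts to 56 and 49 (log2 fold change -1.18 ± 0.195, edgeR adjusted p = 0.00536). CDKN1A, the p21 inhibitor of the cell cycle, went from 83 and 61 counts to 32 and 36 (log2 fold change -1.09 ± 0.223, edgeR adjusted p = 0.0131). IGF1, a growth factor, had 1129 and 1068 counts in untreated and 537 and 648 in hemin-treated cells (log2 fold change -0.90 ± 0.059, edgeR adjusted p = 5.99e-05). CCND3, a D-type cyclin, fell slightly, from 1320 and 1294 counts to 1117 and 1202 (log2 fold change -0.18 ± 0.046, edgeR adjusted p = 0.0297). Of these, ID1 and CDKN1A were not called without untreated replicate 1, and CCND3 was not called by DESeq2 or when any one of the 4 libraries was left out.

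The 3 targets that rose changed by less. MYC, a growth regulator and the highest of the list at a mean of 265 TPM, went from 2730 and 2687 counts to 3412 and 3689 (log2 fold change 0.38 ± 0.041, edgeR adjusted p = 0.000667). TFRC, the transferrin receptor, went from 4595 and 4541 counts to 5116 and 5680 (log2 fold change 0.23 ± 0.041, edgeR adjusted p = 0.0067). CDK6, a cell cycle kinase, went from 1776 and 1577 counts to 1844 and 2080 (log2 fold change 0.22 ± 0.048, edgeR adjusted p = 0.0165), and was not called without untreated replicate 2 or without hemin replicate 2. The survival genes BCL2L1 (0.02 ± 0.043, edgeR adjusted p = 0.857) and MCL1 (0.08 ± 0.042, edgeR adjusted p = 0.24), both named after their values had been seen, were not called.

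**Figure D4:**
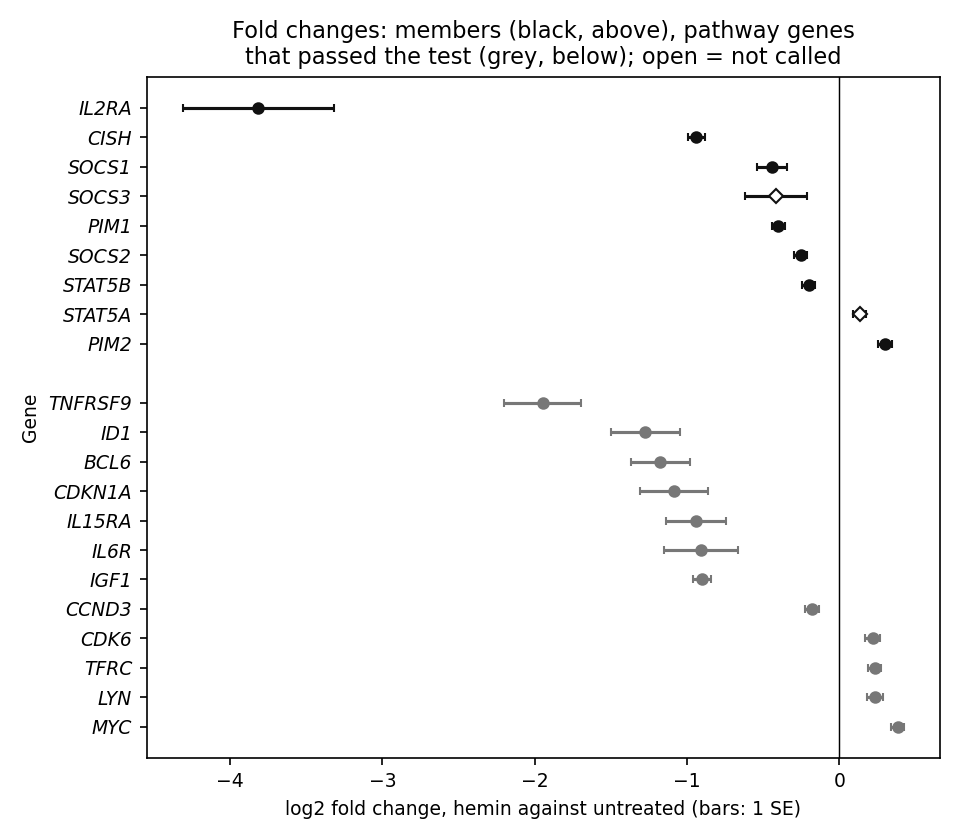
Fitted log2 fold changes (x axis, bars 1 SE) of the 9 tested members (black) and of the 12 pathway genes that passed the test (grey), with open symbols for members not called. Values run from -3.81 for IL2RA to 0.38 for MYC, and 8 of the 12 pathway genes lie to the left of 0.

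The palindromic element was also searched in the pathway lists. Of 98 genes 76 had a promoter window and 11 of these held a match in at least 1 window, which was so for 9.38% of all genes with a window. BCL6, TNFRSF9 and IL15RA were among the 11. Of the other 8 genes with a match, CSF2, PRL and IL3RA had too few counts to be tested. TSLP, GHR, LIFR, DUSP3 and LTA were tested and not called. BCL6, TNFRSF9 and IL15RA were picked because they were called, and a link between the element and the fall was not tested. Their matches are shown so that they can be read beside those of CISH. BCL6 had 2 windows and IL15RA had 4, and the matches come from only 1 window of each. In BCL6 the 4 matches lay at the transcript start, at chr3:187745488-187745496, chr3:187745450-187745473 (a pair) and chr3:187745424-187745432. TNFRSF9 had 1 match at chr1:7941018-7941026, and IL15RA had 1 at chr10:5978165-5978173. Sequences are from GRCh38.p14, minus strand, with matches in capitals.
BCL6 first: TTCCGAGAA
BCL6 middle pair: TTCTTAGAActggggTTCTTAGAA
BCL6 last: TTCTAGGAA
TNFRSF9: TTCCAAGAA
IL15RA: TTCGGCGAA
A core of TTCTAGGAA is shared by the proximal pair of CISH and the last match of BCL6.

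**Figure D5:**
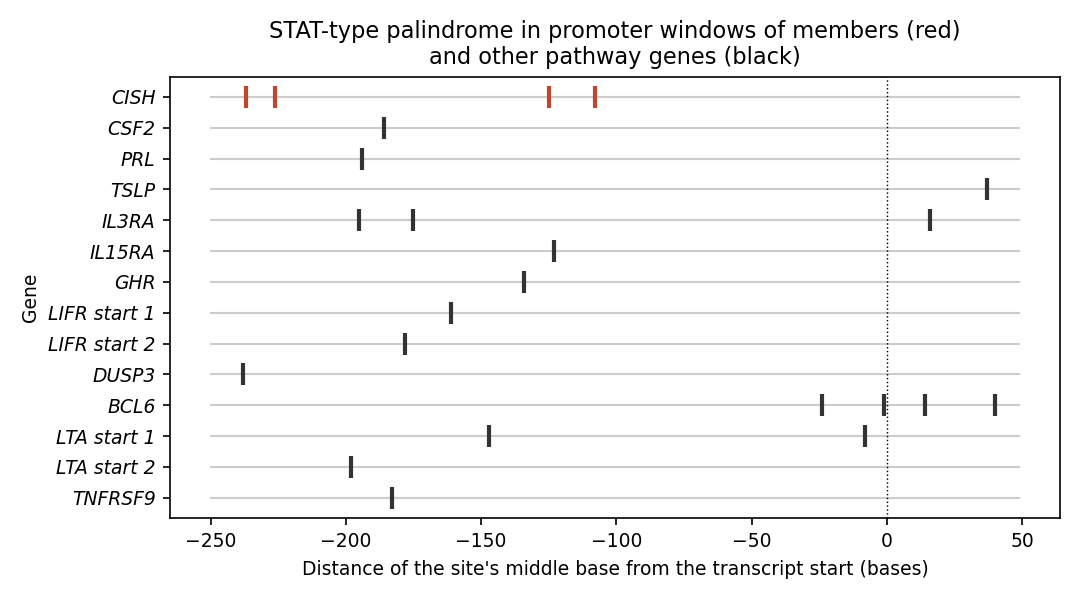
Distance in bases of each TTCNNNGAA match from the transcript start (dotted line), for CISH (red) and the 11 other pathway genes with a match (black), in windows from 250 bases before to 50 after the start. CISH and BCL6 each hold 4 matches, those of CISH all upstream of the start and those of BCL6 around it.

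The protein-coding neighbours of the members within 100 kb were compared with the members themselves. Of 34 tested protein-coding neighbours that are not members, 3 fell (against 7.14% of all genes tested) and 2 rose (against 7.00%). These shares are over genes of every type, not only protein-coding ones. IL15RA lies 32.5 kb from IL2RA on the same strand. HEMK1, a methyltransferase gene 10.3 kb from CISH, went from 675 and 650 counts to 543 and 584 (log2 fold change -0.24 ± 0.056, edgeR adjusted p = 0.0219). HDAC6, a deacetylase gene 88.2 kb from PIM2, went from 631 and 600 counts to 461 and 478 (log2 fold change -0.40 ± 0.061, edgeR adjusted p = 0.00383). PQBP1, 9.8 kb from PIM2, rose from 398 and 388 counts to 465 and 491 (log2 fold change 0.27 ± 0.066, edgeR adjusted p = 0.0254), as PIM2 did. SF3A1, a splicing factor gene 65.1 kb from OSM, rose by 0.27 ± 0.043 on the log2 scale (edgeR adjusted p = 0.00463). STAT3, which lies beside STAT5A, had 899 and 866 counts in untreated and 830 and 850 counts in hemin-treated cells and was not called (log2 fold change -0.08 ± 0.053, edgeR adjusted p = 0.376).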

How the data were processed

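K562 poly(A) RNA was sequenced in 2 untreated and 2 hemin-treated libraries. Per the submitters' processing notes the authors trimmed reads with Trimmomatic 0.39 and quantified them with RSEM 1.3.1 and STAR 2.7.5c on GRCh38. Deposited expected counts are unnormalized read numbers per gene, in which RSEM splits reads of shared sequence between genes, and the posterior SD describes that split. The authors' TPM are scaled by effective length. Deposited mean TPM were used for gene names, and FPKM were not used.

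Expected counts were rounded, filtered by filterByExpr, TMM-scaled and tested with edgeR 4.0.16 (quasi-likelihood, condition only, R 4.3.3), with Benjamini-Hochberg adjustment at 0.05 over 14458 genes. Members and lists were chosen with earlier results of these data known. The named genes were all members, every pathway gene called, the highest of each list by TPM and the 3 profiles nearest IL2RA. Genes outside this rule (partners, overlapping and neighbouring genes, and others of the lists) were named after their values had been seen. One gene named by this rule is not reported here. Alternatives, 14 in all, were other scalings and filters, DESeq2 1.42.0, posterior mean counts, limma 3.58.1 on log2 TPM with pseudocounts of 1 and 0.1, a replicate block and leaving out each library, where the one that remains in a condition is taken to vary as those of the other do. Positions are from GENCODE (GRCh38) and promoters from RefSeq (GRCh38.p14). Protein sequences were not used here. The p-values set the difference between conditions against the spread between these libraries, which the fit estimates partly from other genes. The SE of a fold change was derived from the F statistic of the same test, so it too draws partly on other genes.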

Additional observations from a re-analysis of the deposited data

How the results depend on the processing

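No fold change of the 9 tested members or of the 12 called pathway genes changed direction under the 14 alternatives. For IL2RA DESeq2 gave a fold change without an adjusted p. Main calls were 6 lower and 1 higher among the members, and 8 lower and 4 higher among the pathway genes. Of all genes tested 7.14% were lower and 7.00% higher. Limma on log2(TPM + 1) called 2 members lower, 0 higher and 0 pathway genes in either direction. Beside this it called 0.23% of all genes lower and 0.1% higher. Limma on log2(TPM + 0.1) gave the same counts, with CISH and PIM1 the members called, beside 0.24% of all genes lower and 0.1% higher. With a mean TPM of at least 1 it called 0 of either, beside 0.02% and 0.01% of all genes. Without adjustment the limma p was under 0.05 for 6 members lower and 1 higher in the first 2 of these fits. In the last it was so for 5 and 1. Among the pathway genes it was so for 13, 13 and 10 lower and 2, 2 and 1 higher. Over all genes it was so for 1677, 1655 and 1564 lower and 969, 948 and 963 higher. These were out of 14458, 14458 and 16268 genes tested. Over all genes limma called 33, 34 and 3 lower, against 1033 by edgeR, and 14, 15 and 2 higher, against 1012. The cause was not tested. A filter of at least 20 counts and the posterior mean counts each called 2 members higher, adding STAT5A, beside 9.79% and 9.22% of all genes tested. Library size alone gave 13 pathway genes lower, beside 9.39% of all genes tested. Leaving out a library leaves 1 in a condition, taken to vary as those of the other do. The calls given above for such fits rest on this. Only fold changes are given here. The log2 fold change then ran from -1.008 to -0.869 for CISH, from -4.977 to -3.211 for IL2RA and from 0.272 to 0.335 for PIM2. DESeq2 called 4 members lower, beside 3.49% of all genes tested, and gave IL2RA no adjusted p.

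The replicates share only a number. The correlation between conditions of the difference of replicate 1 and 2 was -0.0221 across genes. With a replicate block 6 members were lower and 1 higher, beside 6.13% and 5.91% of all genes tested. Of the pathway genes 7 were lower and 4 higher, since IL6R was lost. With 2 libraries a condition and under 100 counts for SOCS3 and IL2RA, small changes of rare genes were not detectable.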
